A study of Rattus norvegicus with 8 samples.

Results

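Fibroblast growth factor (FGF) ligands and receptors were described in ovaries of rats exposed to androgen. The 9 genes, 5 ligands (Fgf1, Fgf2, Fgf7, Fgf9 and Fgf18) and 4 receptors (Fgfr1, Fgfr2, Fgfr3 and Fgfr4), were chosen by symbol among 14217 genes that have an array probe set of a single symbol. Female Sprague-Dawley rats carried a silicone capsule that released dihydrotestosterone (DHT) for 12 weeks, and control (CTL) rats carried an empty capsule. All animals were killed at 15 weeks of age, and RNA of the ovarian cortex was read on 8 arrays, which were 3 of single DHT animals, 3 of single CTL animals and 1 of pooled RNA of the same animals per group. The methods record corpora lutea in most CTL ovaries and very few or none in DHT-treated ovaries, and the arrays measured whole cortex, so that fewer cells of a type and less RNA per cell cannot be told apart. The values are log2 expression per probe set, normalized by the authors with GCRMA, and levels are not compared between probe sets.

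FGF ligands are secreted proteins that bind receptor tyrosine kinases together with heparan sulfate, the sugar chain of cell surface proteoglycans. The bound receptor is joined by docking proteins and activates the MAP kinase cascade, which in turn switches on inhibitors of the same cascade. In the ovary, FGFs are known as signals between oocytes, granulosa cells and theca cells and as growth factors of blood vessels, and FGF9 is best known in gonads for its part in testis development.

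Of the 9 members, Fgf9 was called lower and Fgfr2 was called higher in DHT-treated ovaries, and the other 7 were not called. The level of Fgf9 was 10.8-fold lower and that of Fgfr2 was 2.84-fold higher by the means of 3 animals per group. A call required a difference of at least 2-fold, an unadjusted p up to 0.01 and an adjusted p up to 0.1 in limma, with Benjamini-Hochberg adjustment over 31042 probe sets. Each gene was represented by its brightest probe set, judged by the mean of the 6 arrays of single animals. Over all probe sets, 0.351% were called lower and 0.68% were called higher. The DHT animals lay beyond every CTL animal at 4 of the 9 members, as they did at 17.5% of all probe sets. They were lower at 2 members, against 6.85% of all probe sets, and higher at 2 members, against 10.6%. The bases differ, since these shares include probe sets near background (defined below) or without a symbol, and the members are brightest probe sets. The median log2 difference of the 9 members was -0.034, beside -0.029 over all probe sets. That median is the value of Fgf7, which was near background on all 6 arrays, so it does not tell whether the members shifted.

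The promoters of the 2 called members, Fgf9 and Fgfr2, are shown to describe their upstream sequences. A link between sequence composition and the direction of a difference was not tested. The RefSeq table of build GRCr8 gave promoters of 8 of the 9 members, all but Fgfr1. Each sequence runs 5′ to 3′ over the 250 bases before the annotated start. Capitals mark the GC box, GGGCGG or its reverse complement CCGCCC, and the androgen receptor half-site, AGAACA or its reverse complement TGTTCT, was searched as well.
Fgf9, chr15:36327108-36327357, plus strand: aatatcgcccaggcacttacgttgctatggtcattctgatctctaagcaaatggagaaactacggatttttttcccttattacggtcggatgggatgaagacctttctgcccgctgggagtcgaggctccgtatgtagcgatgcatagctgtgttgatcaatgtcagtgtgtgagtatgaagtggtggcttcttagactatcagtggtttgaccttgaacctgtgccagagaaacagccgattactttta
Fgfr2, chr1:194280915-194281164, minus strand: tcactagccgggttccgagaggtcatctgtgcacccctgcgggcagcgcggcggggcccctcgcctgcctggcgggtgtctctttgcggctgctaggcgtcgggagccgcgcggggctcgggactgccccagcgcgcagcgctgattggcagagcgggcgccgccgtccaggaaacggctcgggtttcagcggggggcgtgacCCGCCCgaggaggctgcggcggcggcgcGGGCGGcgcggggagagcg
The Fgf9 window held 46.0% G and C and no GC box, and the Fgfr2 window held 76.8% G and C and 2 GC boxes, which began 47 and 19 bases before the start. Across 33469 promoters of the same length the median was 51.2% G and C, and 30.5% held a GC box. The half-site was in neither window and in 17.5% of all promoters. Among the 8 members with a promoter, 4 held a GC box (Fgf18, Fgfr2, Fgfr3 and Fgfr4) and 1, Fgf2, held the half-site. These matches describe letters in a window, and binding was not measured.

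Among the ligands, Fgf9 was the member with a call. FGF9 is a secreted factor that acts between tissue layers and binds the c forms of several FGF receptors, FGFR2 and FGFR3 among them. Its brightest probe set read 5.55, 7.74 and 6.87 on CTL replicates 1 to 3 and 3.23, 3.23 and 3.40 on DHT replicates 1 to 3. All DHT values lay within a narrow band above the background level of those arrays, and all CTL values lay higher, with a wide spread. The log2 difference was -3.43 (standard error 0.56, adjusted p = 0.0918 by limma), from a DHT mean of 3.29 ± 0.097 (SD, n = 3) and a CTL mean of 6.72 ± 1.10 (SD, n = 3). The arrays of pooled RNA read 3.23 for DHT and 7.42 for CTL.

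A second Fgf9 probe set read 3.86, 5.87 and 2.57 on CTL replicates 1 to 3 and 2.42 to 2.44 on the DHT replicates. It was near background on every DHT array and on CTL replicate 3, where near background means at or below the 95th percentile of olfactory, vomeronasal and taste receptor genes on that array. By this probe set the CTL mean was 2.69-fold above the background level of the DHT arrays, with 2 of the 3 CTL arrays above background. The log2 difference was -1.67 (standard error 0.84), and the probe set was not called (adjusted p = 0.552 by limma). The probe sets thus had the same direction on CTL replicates 1 and 2, and on CTL replicate 3 only the brighter one read above background.

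Fgf1, a ligand that binds all FGF receptors and has no signal peptide, was not called. Its brightest probe set read 2.91, 4.12 and 3.65 on CTL replicates 1 to 3 and 2.94, 2.91 and 2.87 on DHT replicates 1 to 3. The groups overlapped, since CTL replicate 1 lay among the DHT animals. The log2 difference was -0.65 (standard error 0.31, adjusted p = 0.515), and it was -0.98 without CTL replicate 1 and -0.37 without CTL replicate 2, not called in either case. The other 2 probe sets of Fgf1 were near background on all 6 arrays.

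Fgf2, an angiogenic growth factor, Fgf7, a mesenchymal ligand that acts on epithelia through the b form of FGFR2, and Fgf18, a relative of FGF8 best known in bone and cartilage, had 1 probe set each. All 3 were near background on all 6 arrays, so no fold is given. Fgf2 read 2.20 to 2.21 on the DHT arrays and 2.17 to 2.43 on the CTL arrays. Fgf7 read 2.42 to 2.44 on the DHT arrays and 2.41 to 2.55 on the CTL arrays. Fgf18 read 2.48 to 2.52 on the DHT arrays and 2.44 to 2.58 on the CTL arrays. In each case the highest value was that of CTL replicate 3, the array with the highest background level, 3.07 against at most 2.71 on the other 5 arrays. For these ligands a difference was not detectable with these probe sets.

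Among the receptors, Fgfr2 was the member with a call. FGFR2 is a receptor tyrosine kinase whose b and c forms, made by alternative splicing, bind different ligands, and the symbol does not tell which form a probe set reads. The brightest probe set read 6.46, 6.75 and 6.07 on CTL replicates 1 to 3 and 7.90, 7.99 and 7.90 on DHT replicates 1 to 3. The DHT animals lay close together and above every CTL animal. The log2 difference was 1.50 (standard error 0.18, adjusted p = 0.0606 by limma), from a DHT mean of 7.93 ± 0.053 (SD, n = 3) and a CTL mean of 6.43 ± 0.34 (SD, n = 3). The pooled RNA read 7.81 for DHT and 6.78 for CTL.

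The brightest of the 5 probe sets of Fgfr2 was the one with a call. Another lay close to the background level, at 2.77 to 2.84 on the DHT arrays and 2.73 to 2.92 on the CTL arrays, and the other 3 were near background on all 6 arrays. With the 5 probe sets averaged, the log2 difference was 0.28 and Fgfr2 was not called (adjusted p = 0.122). The average is held down by the probe sets at or close to background, so it is no check on the brightest one.

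Fgfr1, the receptor with the widest expression in mesenchyme, had 5.70, 5.72 and 4.77 on CTL replicates 1 to 3 and 6.0, 6.22 and 6.21 on DHT replicates 1 to 3 at its brightest probe set. Every DHT animal lay above every CTL animal, with CTL replicate 3 lowest, but the log2 difference of 0.74 (standard error 0.29, adjusted p = 0.408) did not pass the test. A dimmer probe set of Fgfr1 had the opposite sign, with 2.96 to 2.98 on the DHT arrays and 3.03 to 3.54 on the CTL arrays (log2 difference -0.36, adjusted p = 0.433). The dimmer probe set was near background on CTL replicate 3, and its pooled RNA read 2.82 for DHT and 2.87 for CTL. The 2 probe sets of Fgfr1 therefore differ in sign, the dimmer one close to background, and neither was called.

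Fgfr3, a receptor best known for restraining bone growth, read 4.50, 4.69 and 5.07 on CTL replicates 1 to 3 and 3.89, 4.10 and 4.15 on DHT replicates 1 to 3. The groups did not overlap, with DHT lower, and the log2 difference was -0.71 (standard error 0.17). The unadjusted p was 0.00849 by limma, but the fold of 1.63 and the adjusted p of 0.181 lay outside the limits. The other probe set of Fgfr3 was near background on all 6 arrays.

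Fgfr4, a receptor known for the control of bile acid synthesis in the liver, read 3.25, 3.15 and 3.99 on CTL replicates 1 to 3 and 3.22, 3.33 and 4.10 on DHT replicates 1 to 3. The groups overlapped fully, with replicate 3 highest in both. The log2 difference was 0.089 with a standard error of 0.34 (adjusted p = 0.92), so the spread between animals was larger than the difference.

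**Figure D1:**
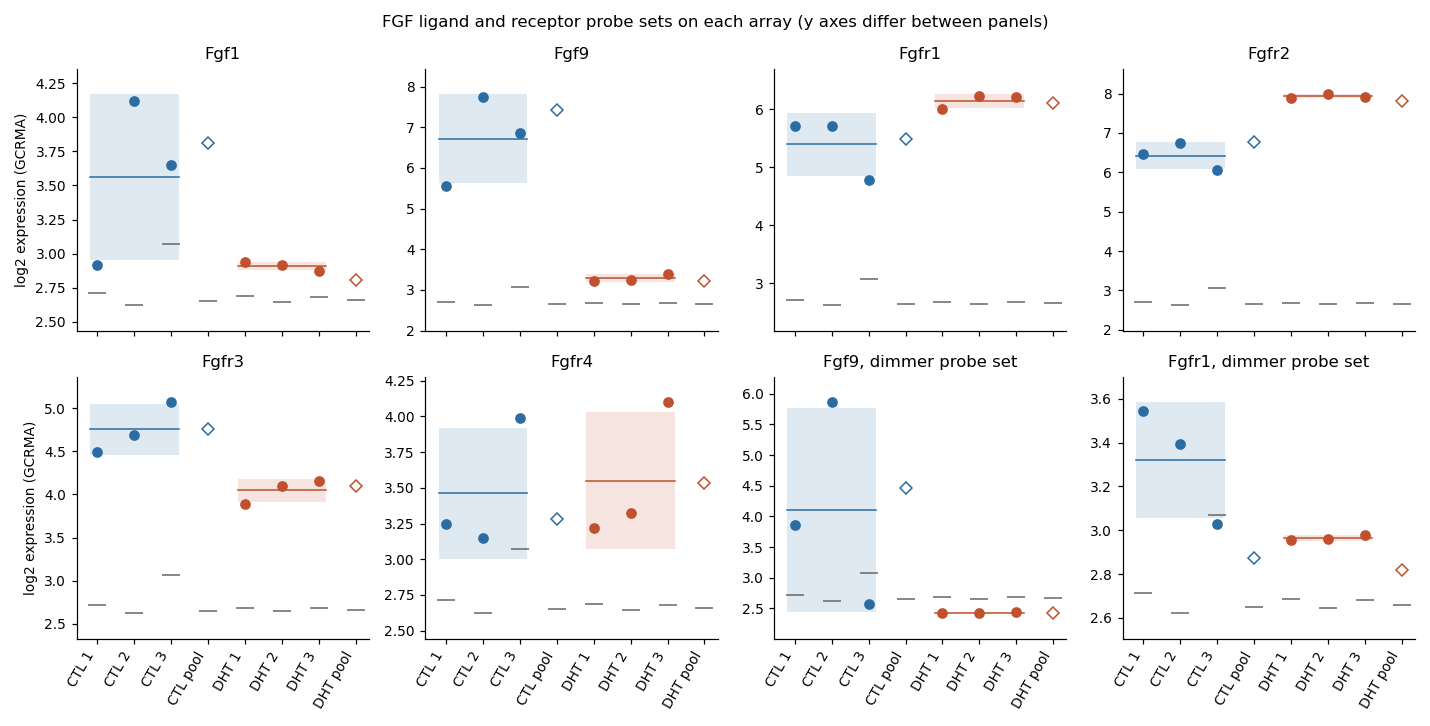
Log2 expression (y axis, a separate scale per panel) on each array (x axis) for the 6 members above background and for the dimmer probe sets of Fgf9 and Fgfr1. Filled circles are single animals, open diamonds are pooled RNA, lines and bands are the mean and SD of 3 animals, and grey dashes are the background level. Fgf9 reads 3.23 to 3.40 on the DHT and 5.55 to 7.74 on the CTL animals, and Fgfr2 reads 7.90 to 7.99 on the DHT and 6.07 to 6.75 on the CTL animals.

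**Figure D2:**
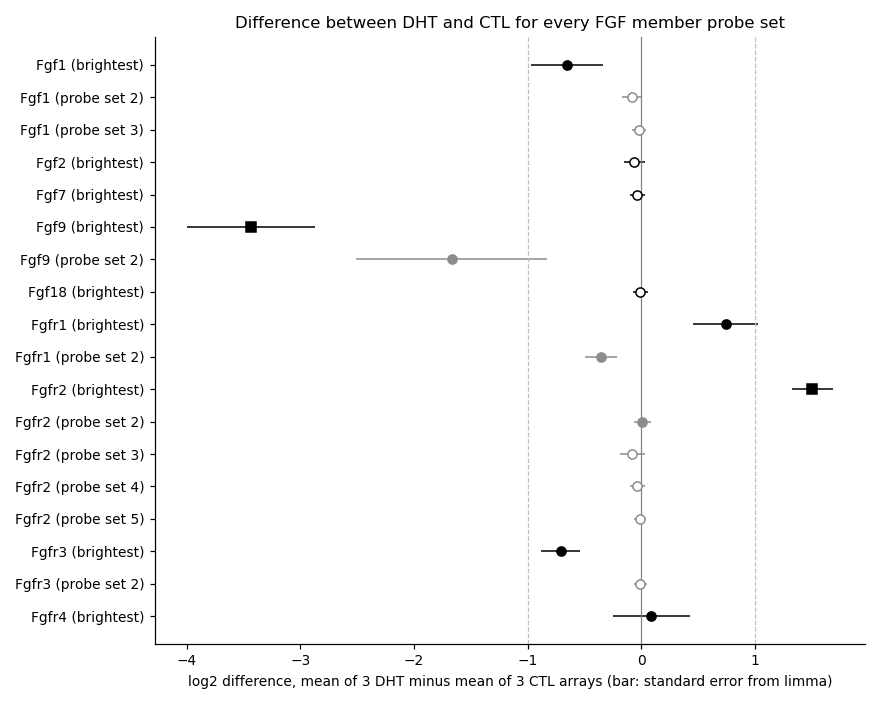
Log2 difference of DHT minus CTL (x axis, bars are the standard error from limma) for all 18 probe sets of the 9 members. Squares are called, open circles are near background on all 6 arrays, black marks the brightest probe set of a gene and grey the others, and dashed lines mark a 2-fold difference. The squares are Fgf9 at -3.43 and Fgfr2 at 1.50, and 9 probe sets are near background on all 6 arrays.

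The arrays differed in how far the labelled RNA was short at its 5' end. For Gapdh, the control probe set at the 3' end minus that at the 5' end was, on the log2 scale, 0.39 and 0.62 on CTL replicates 1 and 2, but 3.49 on CTL replicate 3 and 2.99 to 3.98 on the DHT replicates. CTL replicate 3 is therefore the CTL animal nearest to the DHT arrays in this measure. Against it alone, the log2 difference of the brightest probe set was -3.59 for Fgf9 and 1.86 for Fgfr2. Against CTL replicates 1 and 2 it was -3.36 for Fgf9 and 1.33 for Fgfr2. The second Fgf9 probe set had -0.14 against CTL replicate 3, where it was near background, and -2.43 against CTL replicates 1 and 2. A single CTL animal cannot tell RNA quality from variation between animals. For Fgfr1 the difference was 1.37 against CTL replicate 3 and 0.43 against CTL replicates 1 and 2, and for Fgfr3 it was -1.03 and -0.55, so the size for both receptors depended on CTL replicate 3.

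The directions of Fgf9, Fgfr2, Fgfr1 and Fgfr3 were the same without any single array, while the calls were not kept in every case. Fgf9 had -4.02 without CTL replicate 1 (adjusted p = 0.0743 by limma, still called) and -2.93 without CTL replicate 2 (adjusted p = 0.135). Without CTL replicate 3 it had -3.36 (adjusted p = 0.0846) and missed the limit on the unadjusted p. Fgfr2 was called without CTL replicate 2 (adjusted p = 0.0935) and without CTL replicate 3 (0.0208) but not without CTL replicate 1 (0.129). Without any of the DHT replicates neither was called, at adjusted p of 0.267 to 0.335 for Fgf9 and 0.202 to 0.268 for Fgfr2, where limma called 0 probe sets in all and gave 2529 to 2623 at an unadjusted p under 0.05. The lost calls in those fits are therefore not particular to Fgf9 or Fgfr2. Their log2 differences there were -3.49 to -3.40 for Fgf9 and 1.47 to 1.52 for Fgfr2.

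**Figure D3:**
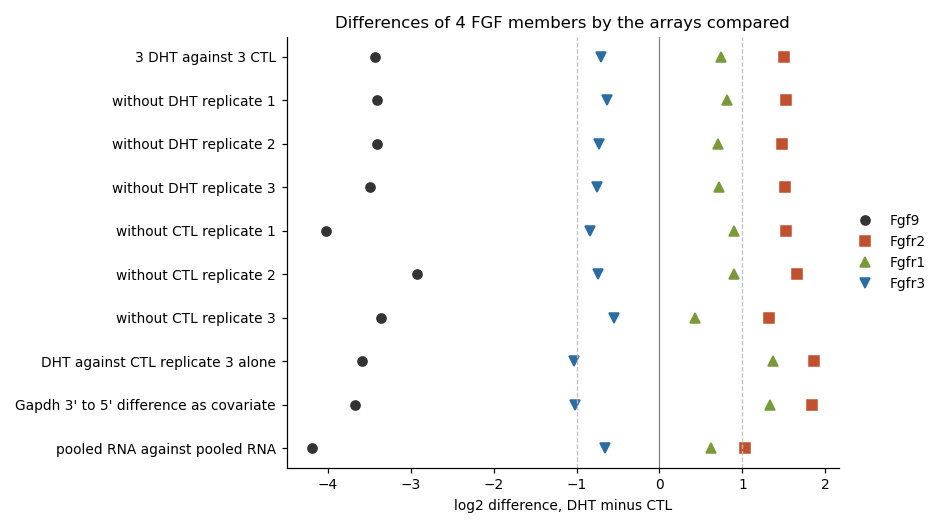
Log2 difference of DHT minus CTL (x axis) of Fgf9, Fgfr2, Fgfr1 and Fgfr3 for each set of arrays compared (rows), from all 6 animals at the top to pooled RNA at the bottom. Dashed lines mark a 2-fold difference. Each gene stays on its side of 0 in every row, Fgf9 between -4.20 and -2.93 and Fgfr2 between 1.03 and 1.86.

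Of 98 other genes in 7 lists of the FGF pathway, 85 were measured, 23 of them near background on all 6 arrays. Of the 85, 1 was called lower and 0 were called higher. At an unadjusted p under 0.05 in limma there were 5 with a negative and 10 with a positive log2 difference, 15 of 85. The share was 11.9% of all probe sets, and 15.4% in a fit without those near background on all 6 arrays. The gene called lower was Dusp6, the phosphatase that removes phosphate from ERK and is switched on by FGF signals. Dusp6 read 7.74, 8.21 and 9.23 on CTL replicates 1 to 3 and 5.45, 5.41 and 6.01 on DHT replicates 1 to 3. The DHT animals were all below the CTL animals, and CTL replicate 3 was highest. The log2 difference was -2.77 (standard error 0.42, adjusted p = 0.0827 by limma), a level 6.84-fold lower in DHT-treated ovaries, and it was -3.61 against CTL replicate 3 alone. The call of Dusp6 was lost without CTL replicate 1 or CTL replicate 2. It was also lost without any one of the DHT replicates, where 0 of all probe sets were called. Without CTL replicate 3, 5 genes of these lists were called lower (Dusp6, Glce, Map2k1, Sdc1 and Spry4) and 2 higher (Fgf12 and Hs6st1), while the share of all probe sets called was 5.23%, against 1.03% with all 6 animals.

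Of the 13 other secreted ligands, all measured, 12 were near background on all 6 arrays, Fgf8 and Fgf10 among them. The exception was Fgf20, with 2.65 to 2.69 on the DHT and 2.64 to 3.15 on the CTL arrays. Of the 4 intracellular FGF homologous factors, which bind sodium channels and are not secreted, Fgf12 had a log2 difference of 0.78 (adjusted p = 0.447), with 4.48 to 4.51 on the DHT arrays, 3.36 and 3.34 on CTL replicates 1 and 2 and 4.45 on CTL replicate 3. It was therefore close to the DHT level on that CTL array.

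Of 9 measured co-receptors, a decoy receptor and carriers, 6 had a positive and 3 a negative log2 difference, and none was called. Against CTL replicate 3 alone 6 of the 9 were negative. Kl and Fgfbp1, near background on all 6 arrays, were among the negative ones in both counts. Flrt3, a membrane protein that binds FGF receptors, had 1.20 (adjusted p = 0.105), just outside the limit, and N-cadherin, Cdh2, which binds FGFR1, had 0.72 (adjusted p = 0.248). Both were higher on every DHT array than on any CTL array.

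Of 24 measured heparan sulfate proteoglycans and the enzymes that modify them, 14 had a negative and 10 a positive log2 difference, and none was called. Against CTL replicate 3 alone 9 of the 24 were negative. Ndst1, Hs6st2 and Sulf1, near background on all 6 arrays, were among the negative ones in both counts. Hs6st1, a sulfotransferase that adds sulfate to heparan sulfate, had 0.96 (adjusted p = 0.0851), a fold of 1.95, under the limit of 2. Syndecan 1, Sdc1, a cell surface proteoglycan, had -2.74 (standard error 0.91, adjusted p = 0.326). It read 8.69, 8.18 and 5.54 on CTL replicates 1 to 3 and 4.27 to 5.38 on the DHT arrays, so that CTL replicate 3 lay next to the DHT animals.

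Of 17 measured adaptors and MAP kinase cascade genes, 12 had a positive and 5 a negative log2 difference, with a median of 0.22 (0.40 and 2 negative against CTL replicate 3 alone), and none was called. Frs2, the docking protein of activated FGF receptors, had 0.96 (adjusted p = 0.0656), a fold of 1.95, with 7.35 to 7.53 on the DHT arrays and 6.24 to 6.62 on the CTL arrays. Gab1, a scaffold that is joined to FRS2, had 1.55 (standard error 0.27, adjusted p = 0.104). The DHT animals were above every CTL animal for both.

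Of 8 measured feedback inhibitors, 6 had a negative and 2 a positive log2 difference, with a median of -0.24 (7 negative and a median of -0.10 against CTL replicate 3 alone). Of the 8, 3 were near background on all 6 arrays, Spry3, Spred3 and Dusp4, and each was negative against CTL replicate 3, the array with the highest background level. The counts and medians therefore include genes for which a difference was not detectable. Apart from Dusp6, the phosphatase Dusp5 had -0.57 (adjusted p = 0.176) and Sprouty 4, Spry4, had -1.03 (adjusted p = 0.498). Spry4 read 4.87, 4.12 and 3.04 on CTL replicates 1 to 3 and 2.74 to 3.11 on the DHT arrays, so the groups overlapped. Of 10 transcriptional targets of FGF signalling, 9 had a negative log2 difference and none was called, with a median of -0.35. Against CTL replicate 3 alone 6 of the 10 were negative, with a median of -0.093. Phlda1, near background on all 6 arrays, was among the negative ones in both counts. Cyclin D1, Ccnd1, had -0.55 (adjusted p = 0.246), and the ETS factor Etv5 had -0.41 (adjusted p = 0.398), at or below background on 1 array of each group. These targets and inhibitors also respond to other growth factors.

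**Figure D4:**
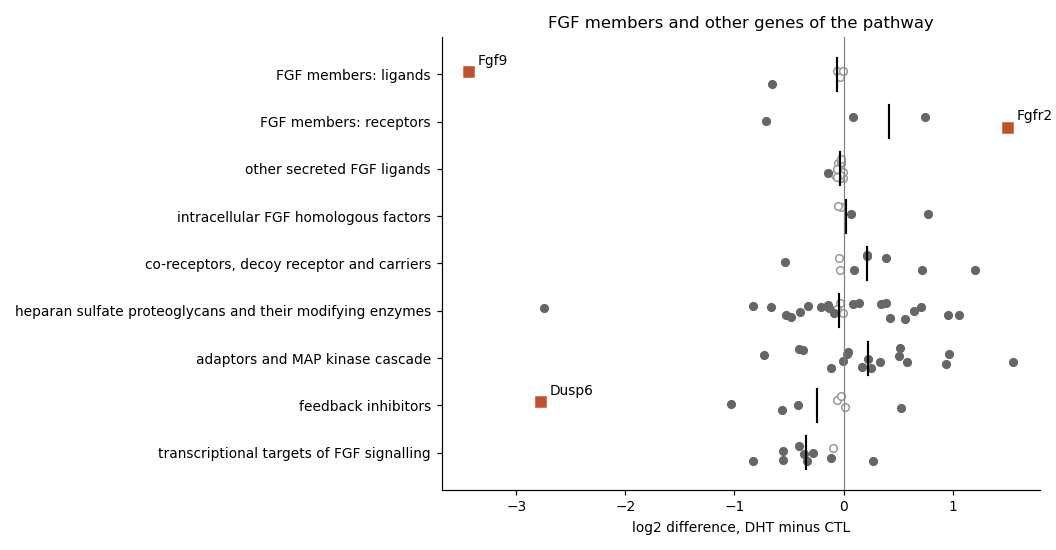
Log2 difference of DHT minus CTL (x axis) for the FGF members and the 7 other lists of the pathway (rows). Each point is a gene, open circles are near background on all 6 arrays, red squares are called and named, and black lines are the medians of the lists. The called genes are Fgf9 and Dusp6 on the left and Fgfr2 on the right.

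The likeness of other genes to a member was measured by Pearson r over the 6 arrays of single animals, among 6055 genes that were above background in a whole group and spanned at least 1 log2 unit. The genes most like Fgf9 were Mia2 (r = 0.999), a protein of export from the endoplasmic reticulum, Hsd17b7 (r = 0.999), an enzyme of sterol and estrogen synthesis, and Zfyve27 (r = 0.998), a membrane protein of neurite growth. Their log2 differences were -1.26, -5.64 and -1.91. The genes most like Fgfr2 were Hells (r = 0.998), a chromatin remodeller, Abca8a (r = 0.998), a lipid transporter, and Senp7 (r = 0.996), a SUMO protease. Their log2 differences were 0.93, 1.02 and 1.04. With 3 animals on either side of a group difference, such values of r describe these arrays and carry no test.

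Markers of ovarian cell types moved with the groups as well. The summed level of 9 corpus luteum markers, on the log2 scale, was 12.5 to 13.6 on the DHT and 14.3 to 15.2 on the CTL arrays, and each of the 9 had a negative log2 difference, with none called. That of 9 granulosa cell markers was 13.1 to 13.3 on the DHT and 11.7 to 12.3 on the CTL arrays, with 8 of 9 positive differences and 1, Inhba, called higher. The negative one was Cyp19a1, at -2.91 (adjusted p = 0.404 by limma). The summed level of 9 macrophage markers was 7.64 to 7.91 on the DHT and 8.11 to 9.52 on the CTL arrays, with 9 negative differences and Ctss called lower. That of 7 endothelial markers was 7.64 to 8.23 on the DHT and 8.24 to 9.05 on the CTL arrays. Of these 7, 6 had a negative difference and 1, Vwf, a positive one. Against CTL replicate 3 alone, 9 of 9 corpus luteum, 2 of 9 granulosa, 6 of 9 macrophage and 4 of 7 endothelial markers had a negative difference. The summed levels of theca, stroma, smooth muscle and surface epithelium markers overlapped between the groups, with Insl3 of theca called higher and Thy1 of stroma called lower. Most stroma markers went the other way from Thy1, 8 of 10 with a positive log2 difference and a median of 0.73. Of 6 measured theca markers 4 were positive and 2 negative. Oviduct markers, 4 of 4, were near background, as were 4 of 6 adipocyte markers, Adipoq and Plin1 among them. The other 2 adipocyte markers, Fabp4 and Lipe, were not called, with log2 differences of -1.72 (adjusted p = 0.522) and -0.70 (adjusted p = 0.553), and were lower on every DHT array than on any CTL array. The summed level of the 6 was 5.27 to 5.44 on the DHT and 5.58 to 7.001 on the CTL arrays. The part of these cell types in the levels of Fgf9, Fgfr2 and Dusp6 was not tested.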

How the data were processed

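RNA of rat ovarian cortex was measured on 8 Affymetrix GeneChip rat genome arrays. The authors deposited log2 expression, 1 value per probe set, made by GCRMA, which corrects the background, normalizes and summarizes. The version of GCRMA is not given in the sources used here. Of the 31042 probe sets left without 57 controls, 20826 carry 1 symbol, 436 carry several and 9780 carry none here, and symbols were updated by Entrez gene to the RefSeq table of GRCr8. The 3 DHT and 3 CTL arrays of single animals were compared in R 4.3.3 by limma 3.58.1 (lmFit and eBayes), a procedure also tested on simulated data. Pooled arrays hold RNA of the same animals and served as a check. Background was the 95th percentile of 41 olfactory, vomeronasal and taste receptor probe sets on each array. Where a whole group was near background, the fold is the mean of the other group over the higher of that level and the value itself. It is not a strict lower bound where the other group also had an array near background. Summed marker levels are log2 of the sum of linear values of the brightest probe sets. Per list, genes called and otherwise at most 2 with the smallest p were named, and 3 genes most like a member. Members and lists were chosen with earlier results of these data known. The number of arrays limits the precision. Alternatives were other array sets, a replicate block, the Gapdh 3' to 5' difference as covariate, quantile normalization, median scaling, a filter on dim probe sets, a mean-variance trend, other call limits and an average over the probe sets of each gene. Other cell types named in the text came from marker lists of 12 types, of which those of oocytes and red blood cells are given in the closing section.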

Additional observations from a re-analysis of the deposited data

How the results depend on the processing

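The alternatives kept the sign of Fgf9, Fgfr2, Fgf1, Fgfr1 and Fgfr3, and Fgfr4, which was not called anywhere, reversed to -0.44 against CTL replicate 3 alone and -0.51 with the Gapdh covariate, and ranged from -0.19 to 0.35 with single replicates left out. The members called lower were 0 to 1, those called higher 0 to 1, the pathway genes called lower 0 to 5 and those called higher 0 to 2 with single replicates left out. The share of all probe sets called in those fits ran from 0%, without a DHT replicate, to 5.23%, without CTL replicate 3. The labels number the replicates without stating a pairing. Deviations of same-numbered animals correlated at -0.074, 0.44 and 0.34, which does not settle whether the animals are paired. With the replicate block 0 members were called lower, 0 higher and 0 pathway genes lower. In that fit 0 of all 31042 probe sets were called, and 3817 had an unadjusted p under 0.05 in limma. The same 0, 0 and 0 were found with a mean-variance trend, where 61 of all probe sets were called, and at an adjusted p of 0.05 or less. Fgf9 had an adjusted p of 0.187 with the block and 0.109 with the trend, and Fgfr2 had 0.17 and 0.134. Quantile normalization left 0 members called lower (Fgf9 adjusted p = 0.14) and 0 pathway genes lower, and median scaling left 0 members called lower (Fgf9 adjusted p = 0.102) and 1 pathway gene higher. With the probe sets of each gene averaged 0 members were called lower and 0 higher, and 2 pathway genes were called higher, Flrt3 and Gab1. These 2 were also called higher without dim probe sets and with pooled arrays as replicate 4, where 2 were called lower, Dusp6 and Sdc1. The share of all probe sets called was 3.11% with pooled arrays as replicate 4, against 1.03% without any alternative. It was 2.1% of the 21027 probe sets left without dim ones, and 1.05% with the probe sets of each gene averaged. Quantile normalization gave a share of 0.557% and median scaling 0.95%. At an adjusted p of 0.1 or less alone 2 pathway genes were called higher, Frs2 and Hs6st1. The share of all probe sets under this rule was not counted, so these 2 stand without a comparison. Against CTL replicate 3 alone, where that animal is assumed to vary like the DHT animals, 2 members were called lower, Fgf9 and Fgfr3, 2 higher, Fgfr1 and Fgfr2, 3 pathway genes lower and 9 higher, beside 3670 of all probe sets. With the Gapdh covariate Fgfr3 replaced Fgf9 as the member called lower (Fgf9 had -3.67 and an adjusted p of 0.0342, but missed the limit on the unadjusted p), 2 members were called higher, Fgfr1 and Fgfr2, and 2 pathway genes were called lower and 10 higher, beside 3747 of all probe sets. The median log2 difference of all probe sets was -0.099 in that fit. The causes were not tested.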

Other observations

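Of 5 measured oocyte markers, 2 were near background on all 6 arrays, and Zp2, a protein of the egg coat, was called higher in DHT-treated ovaries, with a log2 difference of 1.55 (adjusted p = 0.087 by limma). The 2 near background were Zp1 and Bmp15, for which a difference was not detectable. Zp3 had a log2 difference of 0.22 (adjusted p = 0.896 by limma) and was near background on 1 CTL array. Gdf9 had -0.087 (adjusted p = 0.902 by limma) and was near background on 2 DHT arrays and 1 CTL array. Of 3 measured red blood cell markers none was called, and their summed log2 level was 6.97 to 7.81 on the DHT and 4.63 to 8.05 on the CTL arrays, lowest on CTL replicate 3.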
